A study of Caenorhabditis elegans with 2 samples.

Results

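The strong ELT-3 regions of the C. elegans X chromosome are the stretches of X where the pooled ChIP-seq signal of the GATA factor ELT-3 was largest in newly hatched larvae. They were chosen by that signal: the 30000 regions of the authors' pooled list were sorted by signal value, the 2000 strongest were kept, and those on X were taken. Of these 2000 regions 435 lay on X. The 10 with a summit within 20 kb of elt-3 (chrX:13934874-13941216 in ce11) were left out, because the strain carries a transgene with that gene. Reads from the transgene and from the native gene cannot be told apart. The 425 members are compared below with the 1565 strong autosomal regions and the 5504 weaker pooled regions of X, the latter also without summits near elt-3.

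ChIP-seq recovers DNA fragments bound by a protein with an antibody and counts where they map. The single group held 2 biological replicates. Each was made from intact first-stage (L1) larvae, mixed in sex, of the strain OP75. This strain carries the mutation unc-119(ed3) on chromosome III and the transgene wgIs75, which expresses ELT-3 with GFP and FLAG at its C terminus. No other genotype, stage or condition was compared. Whole larvae were used, so a region bound in few cells and one bound weakly in many cannot be told apart. No source used here gave the read depth.

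GATA factors are zinc finger proteins that bind the sequence WGATAR, where W is A or T and R is A or G. ELT-3 is a GATA factor of the hypodermis, the epidermal layer that secretes the cuticle, and it acts there downstream of the factors that specify epidermal fate. The sexes differ in their number of X chromosomes, and a dosage compensation complex lowers expression from X in hermaphrodites. Genes of the germline are sparse on X, which is rich in tRNA genes.

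Sequences of 7 member regions are shown first, because they span what the members have in common and how they differ: the strongest one, the strongest promoter region, those with most GATA sites, and regions at genes of epidermis and of tyrosine and pyrimidine breakdown. Each is 250 bp of the plus strand of WBcel235, the same assembly as ce11, from the RefSeq genome. Capitals mark WGATAR on either strand, so that a site on the minus strand reads as its reverse complement (such as TTATCA).
R03E9.2, chrX:6736328-6736577: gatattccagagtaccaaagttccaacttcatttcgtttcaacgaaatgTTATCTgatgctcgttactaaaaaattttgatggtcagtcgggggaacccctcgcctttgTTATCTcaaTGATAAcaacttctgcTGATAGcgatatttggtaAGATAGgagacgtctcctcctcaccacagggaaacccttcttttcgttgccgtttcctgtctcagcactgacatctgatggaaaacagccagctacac
rpl-11.2, chrX:2242876-2243125: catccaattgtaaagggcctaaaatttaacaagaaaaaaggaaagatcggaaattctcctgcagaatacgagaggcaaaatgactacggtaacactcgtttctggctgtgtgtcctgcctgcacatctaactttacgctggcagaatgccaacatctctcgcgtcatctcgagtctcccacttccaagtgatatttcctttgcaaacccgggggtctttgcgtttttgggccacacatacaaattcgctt
sdz-19, chrX:12500857-12501106: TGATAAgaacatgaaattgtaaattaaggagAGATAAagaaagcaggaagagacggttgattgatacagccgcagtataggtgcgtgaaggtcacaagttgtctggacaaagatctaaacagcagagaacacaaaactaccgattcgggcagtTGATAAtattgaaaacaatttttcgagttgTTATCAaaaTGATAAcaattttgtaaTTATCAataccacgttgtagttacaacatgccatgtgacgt
mob-2, chrX:13165772-13166021: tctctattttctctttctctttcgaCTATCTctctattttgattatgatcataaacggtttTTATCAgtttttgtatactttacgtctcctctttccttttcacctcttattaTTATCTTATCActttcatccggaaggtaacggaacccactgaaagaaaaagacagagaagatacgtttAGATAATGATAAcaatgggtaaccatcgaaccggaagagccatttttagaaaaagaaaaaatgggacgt
dpyd-1, chrX:5467368-5467617: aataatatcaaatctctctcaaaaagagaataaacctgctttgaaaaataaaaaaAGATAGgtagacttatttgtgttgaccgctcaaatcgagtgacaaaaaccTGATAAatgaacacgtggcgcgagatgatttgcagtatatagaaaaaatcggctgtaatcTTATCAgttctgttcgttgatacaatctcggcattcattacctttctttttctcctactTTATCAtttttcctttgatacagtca
col-167, chrX:6323225-6323474: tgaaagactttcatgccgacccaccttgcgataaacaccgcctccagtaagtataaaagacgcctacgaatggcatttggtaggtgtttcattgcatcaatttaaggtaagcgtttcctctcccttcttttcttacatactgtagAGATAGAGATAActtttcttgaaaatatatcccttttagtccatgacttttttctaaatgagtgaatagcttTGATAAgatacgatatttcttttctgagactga
tatn-1, chrX:14790406-14790655: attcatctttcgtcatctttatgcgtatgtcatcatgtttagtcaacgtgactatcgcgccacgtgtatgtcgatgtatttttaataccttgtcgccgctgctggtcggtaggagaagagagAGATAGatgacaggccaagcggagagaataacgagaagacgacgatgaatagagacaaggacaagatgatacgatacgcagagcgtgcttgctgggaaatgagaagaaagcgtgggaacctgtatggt

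The region near R03E9.2 carried 5 sites, of which 4 fell within 50 bp of the summit. The regions at sdz-19 and mob-2 carried 6 each. At mob-2, which codes for an activator of NDR-type kinases, the sites included a pair of overlapping words beside the summit, with starts 5 bp apart, and a second pair with starts 6 bp apart. At col-167, a cuticle collagen gene, a copy of AGATAG ran straight into one of AGATAA. The region at rpl-11.2, a gene of a protein of the large ribosomal subunit, held no WGATAR in its 250 bp. The tatn-1 region had its single site, AGATAG, on the summit itself, at the end of a run of GA repeats.

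In the pooled list the members' signal values ran from 25.9 to 104, with a median of 29.8 (n = 425). The signal value is a score that the authors gave each region, with no stated scale. All of these values describe the choice and are not a result. The last 3 members inside the threshold had a signal of 25.9 each, and the first 3 regions of X outside it had 25.8 each, so the boundary cut through a continuous range. The authors' optimal set, a shorter list derived from pooled and replicate lists, held 64 of the members, all with a signal of at least 42.8.

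The strongest member lay near R03E9.2, 3152 bp upstream of that gene's 5′ end. Its pooled signal value was 104, and it stood at 62.9 in replicate 1 and 39.7 in replicate 2, where it ranked 7th and 23rd. It is the first of a run of regions that ends beyond mdl-1. Next came the region at rpl-11.2, in the promoter 383 bp upstream, with 88.1 pooled, 46.8 in replicate 1 and 40.4 in replicate 2. Both regions thus stood near the top of each replicate's own list, 1 with many GATA sites and 1 with none.

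Among the 15 strongest members, 6 had a WGATAR within 50 bp of the summit and 7 had none in the whole region. The region in an intron of slc-25A21, a mitochondrial carrier gene, had a pooled signal of 70.3 and 3 sites. The region 1465 bp upstream of acly-1, an ATP citrate lyase gene, reached 68.0 with 4 sites. A promoter region at serp-1.1 reached 69.3, and an intergenic region 3897 bp downstream of the 5′ end of gtr-1 reached 68.2. Neither held a site. The others without a site lay near W02H3.3 (75.1), F22H10.2 (78.2), F20B6.9 (65.4) and K02D3.1 (58.9). The region near bcat-1, a gene of branched-chain amino acid breakdown, had 58.6 and lay 4976 bp upstream. The one assigned to C41A3.2 (63.7) lay in an exon of the polyketide synthase gene pks-1.

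Promoters were defined here as 1000 bp upstream to 200 bp downstream of a protein-coding 5′ end. They held 3 of the 15 strongest, those at rpl-11.2, serp-1.1 and dpyd-1. Over all 425 members the share in promoters was 31.1%, and over the 64 in the optimal set it was 35.9%. Of the 15, 14 had a region in both replicates, and the signal was the larger in replicate 1 in 11 of them. The region near F22H10.2 stood at 50.02 in replicate 1, rank 11, and replicate 2 listed no region within 100 bp of it.

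A GATA site was more frequent at the members' summits than beside them. WGATAR lay within 50 bp of the summit in 149 of 425 members (35.1%, 95% exact interval 30.5 to 39.8) and in 195 of 850 windows of the same width centred 500 bp to either side (22.9%). The odds ratio was 1.81 (95% interval 1.40 to 2.34; Fisher's exact test, 2-sided, p = 6.84e-06, adjusted over 7 tests 4.78e-05). With each summit paired with its right flank alone the ratio was 2.19 (exact McNemar test, p = 1.19e-06). WGATAR lay in 85 of the 425 right flanks and in 110 of the left ones, and pairing with the left flank was not tested. The call was not the same in both replicates. With the strongest regions of replicate 2 in place of the pooled ones the odds ratio was 1.83, and with those of replicate 1 it was 1.26 (Fisher's exact test, p = 0.101). The difference between the replicates was not tested. Of the 850 flanks 88 were themselves centred in a pooled region.

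**Figure D1:**
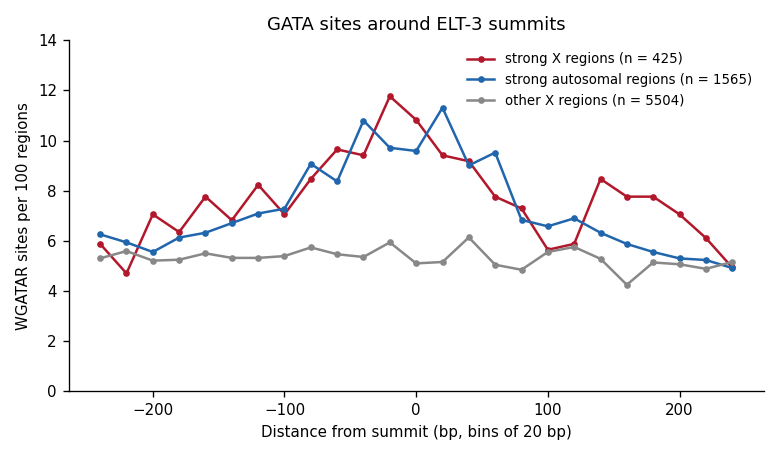
WGATAR sites on either strand per 100 regions (vertical axis) by distance from the summit in bins of 20 bp (horizontal axis) for strong X, strong autosomal and other X regions. Strong X regions peaked at 11.8 sites per 100 regions in the bin 20 bp to the left of the summit. Strong autosomal regions peaked at 11.3 in the bin 20 bp to the right, and the other X regions stayed between 4.25 and 6.14.

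The sites were most frequent close to the summit. In bins of 20 bp the members held 11.8 sites per 100 regions just left of the summit and 10.8 in the central bin, and 5.88 and 4.94 in the outermost bins of the profile. The decline was uneven, with 8.47 in the bin 140 bp to the right. The strong autosomal regions had 9.58 in the central bin and peaked at 11.3 in the bin 20 bp to the right. The other X regions had 5.11 in the central bin. In the 238 members with a site within 125 bp of the summit, the nearest site lay a median of 34.5 bp from it. For 92 of them it lay within 25 bp.

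The members' 250-bp regions held 447 WGATAR sites in all, 225 on the plus strand and 222 on the minus strand. There were 188 members with no site (44.2%), 107 with 1, 78 with 2, 36 with 3 and 16 with 4 or more (3.76%). Among the other X regions 53.9% had none and 0.999% had 4 or more. Signal and number of sites were weakly related within the members (Spearman's rho 0.195 over 425 regions, given as a description since the members were selected on signal). The 8 members with most sites were those at sdz-19, mob-2, mig-15 and nhr-48, with 6 each, and those near R03E9.2, pgp-10, rnp-9 and abf-6, with 5 each. None of the 8 lay in a promoter. Their pooled signals ran from 29.8 to 104, and all 8 had a region in both replicates. The mig-15 gene codes for a Ste20-type kinase and pgp-10 for an ABC transporter.

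Neighbouring sites often lay close together. Of 210 pairs of neighbouring sites within a region, 55 had starts within 15 bp of each other, in 47 regions, and 12 pairs overlapped. In 44 of the 55 close pairs both sites were on the same strand, in 9 they stood back to back (minus strand first) and in 2 they faced each other. Among all 210 pairs 134 were on the same strand. These counts had no comparison windows and are a description.

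The versions of the site were not equally frequent at summits. TGATAA made up 209 of the 447 sites (46.8%), AGATAA 91, AGATAG 82 and TGATAG 65. Within 50 bp of the summit TGATAA occurred in 19.3% of members and 9.18% of flanks (Fisher's exact test, adjusted over 2080 words p = 5.21e-05), and AGATAG in 8.47% against 3.06% (adjusted p = 0.00165). By the same Fisher's exact test AGATAA stood at 8.71% against 8.12% (adjusted p = 0.941) and TGATAG at 6.59% against 4.59% (adjusted p = 0.395). Whether the versions differed from each other in their excess was not tested.

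Over all 2080 words of 6 bases, each joined with its reverse complement, 128 were more frequent at the members' summits than in the flanks (6.15% of words) and 83 less frequent (3.99%), at an adjusted p under 0.05 by Fisher's exact test. With replicate 2's own strongest regions 78 words were more frequent, and with the 1000 strongest pooled regions 80. The word with the smallest p among those more frequent was GAGAGA, in 15.1% of summits and 5.06% of flanks (Fisher's exact test, adjusted p = 1.18e-06). CTTATC, which on the other strand is the GATA word GATAAG, followed with 14.8% against 5.18% (Fisher's exact test, adjusted p = 3.48e-06). By Fisher's exact test ACGCGC (5.88% and 0.824%) had an adjusted p of 2.06e-05, TGATAA came next, and AAGAGA (16.9% and 7.53%) had one of 5.42e-05.

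The 5 words of smallest p among those less frequent were made mostly of A and T. TAAAAA occurred in 10.8% of summits and 31.2% of flanks (Fisher's exact test, adjusted p = 1.54e-13) and AAAAAA in 19.8% against 42.5% (adjusted p = 3.18e-13). AAAATT stood at 18.8% against 38.4%, TTCAAA at 12.2% against 29.8% and AAAAAT at 24.5% against 44.5%. Base composition moved with these words: G and C made up 42.4% ± 7.58 of the summit windows (SD, n = 425) and 35.5% ± 8.54 of the flanks (SD, n = 850). Its part in the word counts was not tested.

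The GA repeat was about as frequent beside a GATA site as without one. GAGAGA was present in 14.8% of the members with WGATAR (22 of 149) and in 15.2% of those without (42 of 276), and 234 members (55.1%) had neither within 50 bp of the summit. Other X regions held GAGAGA in 6.38% and strong autosomal regions in 17.1%. ACGCGC stood in 13 of 132 members in promoters (9.85%) and in 12 of 293 elsewhere (4.10%), a difference that was not tested.

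No difference in sequence between the X members and the strong autosomal regions passed a test with these numbers. WGATAR was found in 35.1% of members and in 33.6% of strong autosomal regions (526 of 1565), an odds ratio of 1.07 with a 95% interval of 0.851 to 1.34 (Fisher's exact test, p = 0.603, adjusted p = 0.844). In the weaker regions WGATAR was found in 22.5% on X (21.4 to 23.6) and in 20.3% on the autosomes (19.8 to 20.8). That odds ratio, X over autosomes, was 1.14 and was not tested by itself. The ratio of the strong to the weaker odds ratio was 0.939 (0.741 to 1.19 in a logistic model, Wald test with n = 425 on the strong X side, p = 0.600). Of 2080 words none was called more frequent and none less frequent on X by Fisher's exact test (0% of words in each direction). At an unadjusted p under 0.05 there were 66 words more frequent and 55 less frequent, 5.82% of all words, and the smallest adjusted p was 0.426, for CCCTGC with 4.71% against 1.47%.

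The next words with a higher share on X were ACTATC with 7.29% against 3.32%, AAGGTA with 5.65% against 2.43%, GGGGCA with 5.41% against 2.24% and AGCGTA with 3.06% against 0.895%. Those with a lower share were AAATCG with 5.18% against 10.2%, TCTCCA with 4.94% against 9.52%, CTATTA with 0.706% against 3.13%, CATAGG with 0.235% against 2.17% and AAATCC with 2.59% against 5.94%. Each of these 9 had an adjusted p of 0.475 (Fisher's exact test). The G and C share was 42.4% in the members and 42.7% ± 7.82 (SD, n = 1565) in the strong autosomal windows.

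**Figure D2:**
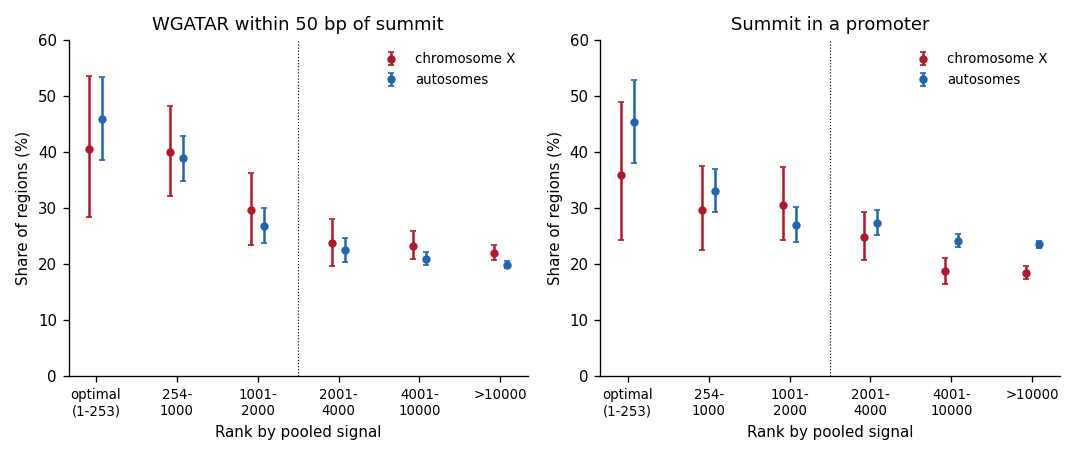
Share of regions with WGATAR within 50 bp of the summit (left) and share with the summit in a promoter (right), in percent, by rank in the pooled list, for X and the autosomes, with 95% exact intervals. Points left of the dotted line are the strong regions. On X the WGATAR share was 40.6% in the optimal set and 22.1% in the weakest tier, and for WGATAR the intervals of X and the autosomes overlapped in each of the first 5 tiers. In the weakest tier they did not overlap (20.8% to 23.4% on X, 19.3% to 20.5% on the autosomes).

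The share of members with WGATAR was lowest in the last ranks. In the 64 members of the optimal set it was 40.6% (28.5 to 53.6), in the 155 members below them down to rank 1000 it was 62 of 155 (32.2% to 48.2%), and in the remaining 206 it was 29.6% (23.5 to 36.4). The first weaker tier of X, 413 regions, stood at 23.7% (19.7 to 28.1). The same tiers of the autosomes had 45.9%, 38.9%, 26.9% and 22.5%. The intervals of neighbouring tiers on X overlapped throughout.

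The replicates listed most members but ranked them differently. A region with a summit within 100 bp was found for 398 members in replicate 1 (93.6%, 90.9 to 95.8) and for 350 in replicate 2 (82.4%, 78.4 to 85.9), for 324 in both (76.2%) and for all but 1 in at least 1 of them. The pooled list was made from both, so this match is a description. Of the 64 members in the optimal set all were matched in replicate 1 and 62 in replicate 2. Signals in replicate 1 ran from 8.35 to 62.9 with a median of 17.0 (n = 398), and in replicate 2 from 8.72 to 40.4 with a median of 15.1 (n = 350).

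In the 324 members matched in both, replicate 1 had the larger signal in 199. The replicates differed by a median of 1.37-fold, and by 2-fold or more in 31 members. The rank correlation of the 2 signals was 0.111 (Spearman's rho, n = 324), in regions selected on the pooled signal of the same libraries. It was 0.508 between pooled and replicate 1 (n = 398) and 0.663 between pooled and replicate 2 (n = 350). The pooled signal contains both replicates and was used to select the members, so these correlations are a description. The part of that selection in the low value between replicates was not tested.

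**Figure D3:**
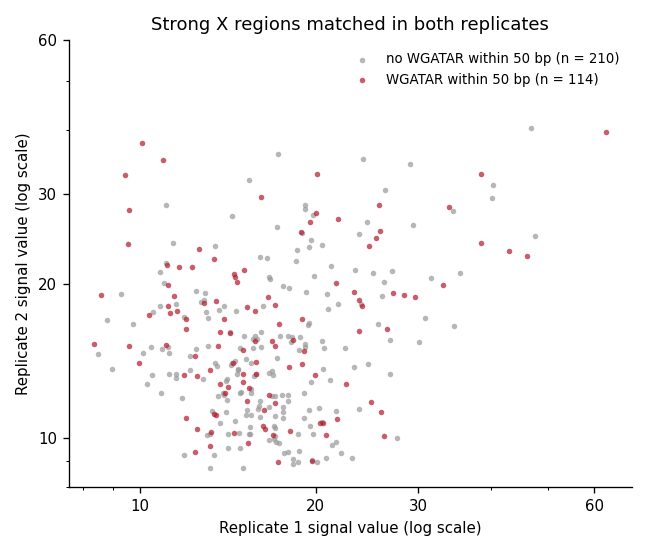
Signal value in replicate 1 (horizontal, log scale) and replicate 2 (vertical, log scale) of the 324 strong X regions with a region in both lists, by presence of WGATAR within 50 bp of the summit. The points form a broad cloud with a rank correlation of 0.111, and the region near R03E9.2 stands apart at 62.9 and 39.7.

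Each replicate's own 2000 strongest regions took in a similar number of members, 219 from replicate 1 (51.5%) and 206 from replicate 2 (48.5%). Of the 425 members 94 were among the strongest in both, 125 in replicate 1 alone, 112 in replicate 2 alone and 94 in neither. WGATAR lay at the summit of 36.2% of the first set (26.5 to 46.7), 26.4% of the second (18.9 to 35.0), 45.5% of the third (36.1 to 55.2) and 33.0% of the last (23.6 to 43.4). The share was higher in the members strong in replicate 2 alone than in those strong in replicate 1 alone. These sets were formed from the signals, so the shares and intervals are a description and the difference was not tested.

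X held 24.0 strong regions per Mb, where the autosomes together held 18.96, chromosome I 28.9 and chromosome V 14.8. As a share of all pooled regions listed, strong ones made up 7.17% on X, 6.51% on the autosomes together, 8.60% on chromosome I and 5.13% on chromosome V. Along X the count per Mb ran from 11 in the first Mb to 35 in the 12th, which was 4.51% and 9.26% of the pooled regions there. The median gap between neighbouring members was 25088 bp. With members joined when less than 10 kb apart, 225 stood alone, 100 formed 50 pairs and 39 formed 13 groups of 3. A further 13 groups held 4 or more, with 61 members in all (14.4%). Such groups held 22.7% of the strong regions of chromosome I and between 7.08% and 11.2% of those of the other autosomes.

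The members were spread over genes, introns and the space between genes. In promoters lay 132 members (31.1%, 26.7 to 35.7), between genes outside promoters 138 (32.5%, 28.04 to 37.2), in introns 90 (21.2%) and in exons 65 (15.3%, 12.0 to 19.1). The weaker X regions stood at 19.02% in promoters and 28.4% in exons. Promoter windows made up 17.6% of the sequence of X and 22.3% of that of the autosomes, and X had 154 protein-coding genes per Mb against 209.

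**Figure D4:**
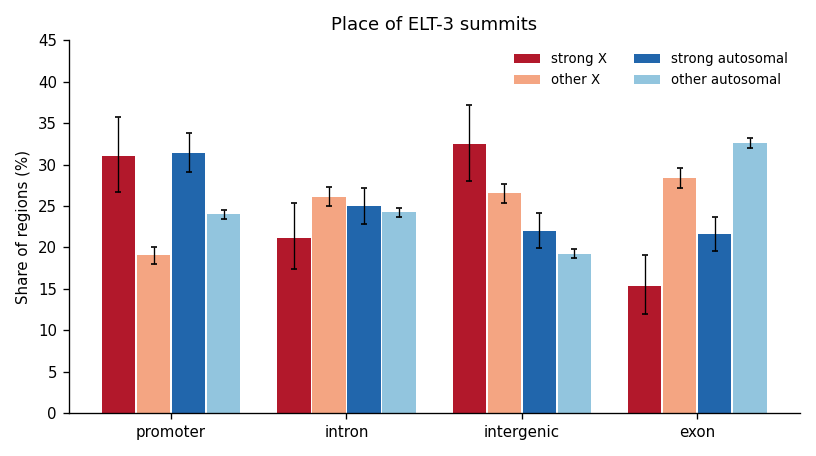
Share of regions, in percent with 95% exact intervals, whose summit lay in a promoter, an intron, the rest of intergenic sequence or an exon, for strong and other regions of X and of the autosomes. Strong X regions stood at 31.1% in promoters, where the other X regions stood at 19.02%.

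Between genes outside promoters lay a larger share of the X members than of the strong autosomal regions, 32.5% (28.04 to 37.2) against 21.98% (19.95 to 24.1). In exons the X share was the smaller, 15.3% (12.0 to 19.1) against 21.6% (19.6 to 23.7). Intron shares were 21.2% and 24.98%. Weaker regions of X and the autosomes stood at 26.5% and 19.2% between genes and at 28.4% and 32.6% in exons. These differences were not tested. Promoter shares of the X members and the strong autosomal regions were close. They were 31.1% and 31.4% (492 of 1565), an odds ratio of 0.983 (0.779 to 1.24; Fisher's exact test, p = 0.906, adjusted p = 0.913). Among weaker regions the X share was the lower, 19.02% against 23.97%, an odds ratio of 0.745. The ratio of the strong to the weaker odds ratio was 1.32 (1.03 to 1.68; Wald test with n = 425 on the strong X side, p = 0.0257), which did not hold after adjustment over 7 tests (adjusted p = 0.0901). With the strongest regions of replicate 1 the ratio was 1.39 (Wald test, n = 397, p = 0.0122) and with those of replicate 2 it was 1.11 (n = 412, p = 0.401).

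No difference in GATA sites was found between members in promoters and the others. WGATAR lay at the summit in 47 of 132 promoter members (35.6%) and in 102 of 293 others (34.8%), an odds ratio of 1.04 (0.674 to 1.59; Fisher's exact test, p = 0.913). Set against their own flanks, promoter members had 35.6% against 21.2% (odds ratio 2.05, Fisher's exact test, adjusted over 4 places p = 0.00832), introns 36 of 90 against 22.8% (2.26, adjusted p = 0.00832) and intergenic members 37.7% against 69 of 276 flanks (1.81, adjusted p = 0.0113). The 65 members in exons had 21.5% against 22.3% (0.956, Fisher's exact test, adjusted p = 1). Whether exons differed from the other places was not tested. The exon members were also among the weaker ones, with a median signal of 27.8, where intergenic members had 31.6 and promoter members 30.1.

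Of the members near a gene's start more lay before it than behind it. This share is given for the members alone, with no other regions beside it, and is a description. A protein-coding 5′ end was within 2000 bp of 242 members (56.9%), and 154 of these summits were upstream of it (63.6%, 57.2 to 69.7). The median distance over all members was 1594 bp, and 54 members (12.7%) were over 5000 bp away. Of the 243 members between genes, 93 lay between divergent genes (38.3%), 123 between genes on the same strand (50.6%) and 27 between convergent genes (11.1%). The sequence of X between genes is divided in nearly the same way, with 36.7%, 53.5% and 9.25%.

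Close to tRNA genes, which are transcribed by RNA polymerase III and abundant on X, lay 10 members (2.35%), against 18 strong autosomal regions (1.15%), within 200 bp. The odds ratio was 2.07 (0.949 to 4.52; Fisher's exact test, p = 0.0995, adjusted p = 0.232). With replicate 1's own strongest regions it was 2.95 (Fisher's exact test, p = 0.0367) and with the 1000 strongest pooled regions 3.15 (p = 0.0295), both unadjusted. X holds 276 of the nuclear tRNA genes (45.1%) in 17.7% of the nuclear sequence. The odds ratios above take no account of this density. Only 1 of the 10 members, at sur-7, had a WGATAR at its summit, and their pooled signals ran from 26.9 to 43.1.

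The largest group on X was at R03E9.2 and mdl-1, with 10 members over 13409 bp, of which 6 had WGATAR at the summit. The pooled list held 17 regions in that stretch. The gene mdl-1 (chrX:6742351-6743899, plus strand) codes for a Mad-family bHLH factor that pairs with Max-like proteins, and it was one of 2 genes with 3 members within 2000 bp. Windows of 101 bp around 2 of its summits are shown, since they differ in sites: the promoter one has none and the one beyond the gene has 1, in capitals (plus strand, ce11).
mdl-1 promoter, chrX:6742229-6742329: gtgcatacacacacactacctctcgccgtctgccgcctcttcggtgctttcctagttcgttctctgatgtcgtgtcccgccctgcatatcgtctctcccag
mdl-1 downstream, chrX:6743945-6744045: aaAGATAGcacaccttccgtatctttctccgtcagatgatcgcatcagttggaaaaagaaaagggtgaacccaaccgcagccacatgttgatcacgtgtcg

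The promoter summit lay 72 bp upstream of the 5′ end of mdl-1 and had a pooled signal of 47.3, with 34.6 in replicate 1 and 16.6 in replicate 2. The downstream summit, 1644 bp from the 5′ end, had 49.8, with 29.7 and 18.8. A weaker region 611 bp upstream had 27.9, with 17.1 and 9.83. In all 3 the signal of replicate 1 was the larger. At the far end of the group, 2 regions lay in an intron of abts-4, an anion transporter gene, with 31.3 and 31.4. Near R03E9.2, 2 members overlapped, the only such pair among all members: one was listed in replicate 1 alone (17.7) and the other in replicate 2 alone (27.4).

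The tyrosine aminotransferase gene tatn-1 (chrX:14791008-14792984, plus strand), whose product starts the breakdown of tyrosine, was the nearest gene of 5 members over 8089 bp. WGATAR lay at 4 of the 5 summits. Going along the gene's direction, the pooled signals were 33.1 at 7423 bp upstream, 45.6 at 3860 bp, 31.9 at 3411 bp and 41.8 at 477 bp, then 26.6 at 666 bp downstream. In replicate 1 they were 13.7, 16.1, 11.7, 23.7 and 21.8. In replicate 2 the first 4 were 16.1, 29.5, 21.6 and 18.6, and the region inside the gene was not listed. The replicates thus favoured different members, replicate 2 the distal ones and replicate 1 those at the gene.

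A second gene of the same pathway on X, gst-42, which codes for maleylacetoacetate isomerase, had a promoter member 32 bp upstream with 34.0 pooled, 12.3 in replicate 1 and 21.6 in replicate 2, and with 3 sites. Of the 3 genes of tyrosine breakdown on X 2 were assigned a member. Over all 2731 protein-coding genes of X, 221 were assigned at least 1 member within 2000 bp (8.09%), 202 of them 1, 17 of them 2 and 2 of them 3. This share is the base for the gene lists below, and with so few genes per list the counts are a description.

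The other gene with 3 members was osm-11 (chrX:17420211-17421582, minus strand), which codes for a secreted ligand of Notch receptors and whose loss makes worms resistant to osmotic stress. Its members lay 1775 bp upstream, 117 bp upstream and 1535 bp downstream of the 5′ end, with pooled signals of 36.8, 30.1 and 38.3. The first had 24.9 in replicate 1 and 11.8 in replicate 2. The second was listed in replicate 1 alone, at 10.5. The third had 9.59 and 27.95, rank 19442 in replicate 1 and rank 108 in replicate 2. A member assigned to pbo-6 completed the group, with 42.5 pooled and 35.7 in replicate 1 alone.

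**Figure D5:**
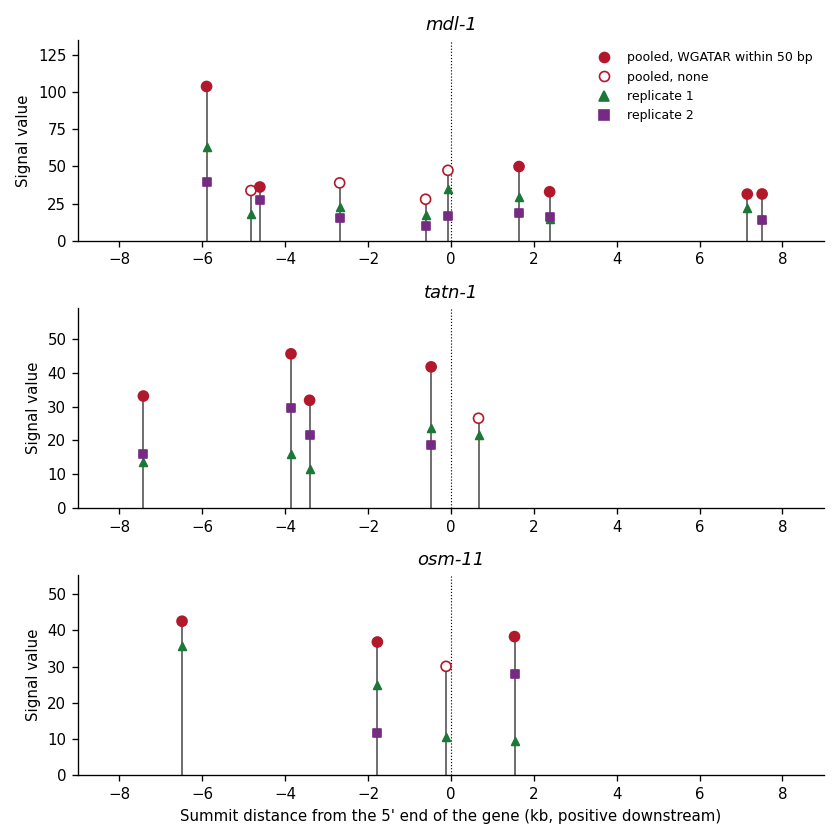
Signal values of the members by distance from the 5′ end of mdl-1, tatn-1 and osm-11 (kb, positive in the direction of the gene): circles pooled, filled where WGATAR lies within 50 bp of the summit, triangles replicate 1 and squares replicate 2. WGATAR lay at 4 of 5 summits at tatn-1, and the region near R03E9.2 is the tallest at 104.

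Another group held both members of dpyd-1 (chrX:5467870-5472683, plus strand), which codes for dihydropyrimidine dehydrogenase, the first enzyme of pyrimidine breakdown, and 2 members nearest to dlg-1. The dpyd-1 summit 377 bp upstream had 54.3 pooled, 25.8 in replicate 1 and 25.4 in replicate 2, and 4 sites (shown above). The one 196 bp downstream, in the first part of the gene, had 65.5, 42.9 and 23.3, and 3 sites, of which 2 copies of TGATAA lie within 50 bp of the summit, in the window printed here.
dpyd-1 second region, chrX:5468016-5468116: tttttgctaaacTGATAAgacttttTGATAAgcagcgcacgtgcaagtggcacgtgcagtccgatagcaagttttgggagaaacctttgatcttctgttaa

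In the group at scd-1, a gene singled out here after its values were seen, 4 members lay within the gene. One in its intron had a pooled signal of 65.4 with 33.8 in replicate 1 and 28.2 in replicate 2, and 4 sites. The one past it, nearest to sdz-19 and shown above, had 64.0, with 38.3 and 24.1. Both were stronger in replicate 1.

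Cuticle genes had members at shares near that of all X genes. Of 30 cuticle collagen genes on X 2 were assigned a member. The promoter summit of col-167, 138 bp upstream, had a pooled signal of 48.9, with 18.9 in replicate 1 and 25.3 in replicate 2. That of col-166, 302 bp upstream, had 49.0, with 30.8 and 17.2, and unlike col-167 no site; its window is shown for comparison with the col-167 region above. A second, weaker member lay 1167 bp downstream of the col-166 5′ end.
col-166, chrX:6279664-6279764: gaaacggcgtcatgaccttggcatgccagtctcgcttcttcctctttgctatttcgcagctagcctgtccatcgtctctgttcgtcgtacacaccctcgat

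Among genes of molting and of other cuticle parts 2 of 24 were assigned a member: lpr-3 at 31.0, with 15.3 and 18.1 in the replicates, and lpr-5 at 27.2, listed in replicate 1 alone. Both code for lipocalin-like proteins of the apical extracellular matrix. Of 2 epidermal regulators on X, nhr-25, the Ftz-F1-type receptor needed for molting, had a promoter member at 29.7, listed in replicate 2 alone at 15.9. None of the 4 GATA factor genes on X was assigned a member, with elt-3 set aside by rule. Among hedgehog-related genes 1 of 10 was assigned, wrt-6 (30.2), and of 4 patched-related genes 0.

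Of 10 genes of epidermal junctions and attachment 2 were assigned a member. They were dlg-1 (30.1), which codes for a scaffold of the epithelial junction, and spc-1 (29.4), for alpha spectrin. The filamin gene fln-2 held a stronger member, 50.01, in one of its introns, 6094 bp behind the 5′ end. Of 3 antimicrobial peptide genes cnc-8 was assigned (32.7, 3 sites). The 1 gene of the osmotic response list on X was osm-11.

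Of 27 nuclear receptor genes on X 6 were assigned a member (22.2%, beside 8.09% of all X genes), and 7 more were the nearest gene of a member farther away. The strongest was nhr-14 with 56.0, 1419 bp upstream, and 48.4 in its own intron, followed by nhr-3 (34.7), nhr-25 (29.7) and nhr-32 (29.2). At nhr-14 the first region had 29.4 in replicate 1 and 26.1 in replicate 2 and no site, and the second had 19.2 and 28.04 and 3 sites in the region. Neuropeptide genes were assigned in 6 of 37 cases (16.2%), led by ins-39 (43.3) and flp-18 (32.3), then flp-20 (29.2) and flp-5 (28.7).

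Detoxification genes on X were few. Of 4 UDP-glucuronosyltransferase genes ugt-50 was assigned (35.6, promoter, 2 sites), of 3 glutathione transferase genes gst-42, and of 7 cytochrome P450 genes 0. Homeobox genes stood at 2 of 27, ceh-90 (28.8) and pha-2 (27.9). Ion channel and innexin genes stood at 2 of 68 (2.94%), with del-5 (34.9) and kqt-2 (26.5), and chemoreceptor genes at 2 of 34, srh-11 and srv-5 (26.1 and 25.9).

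Lists of markers of other tissues were short, and their counts are set beside the 8.09% of all X genes as a description. No member was assigned to any of the 11 intestine markers (the 5 vitellogenin genes among them), the 10 body muscle markers or the 9 pharynx markers on X. The body muscle gene tnt-3, for a troponin, held an intronic member (30.3), 3648 bp from its 5′ end. Of 15 neuron markers it was mec-7 alone, a beta tubulin gene of touch neurons (27.9, in an exon). Of 2 genes on the germline list it was puf-9, a Pumilio-type RNA-binding protein gene also active in somatic tissue (57.8, promoter, with 35.4 in replicate 1 and 21.0 in replicate 2).

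Among housekeeping lists, rpl-11.2 was 1 of 2 ribosomal protein genes, his-24, a linker histone gene, 1 of 4 histone genes (43.8), and dnj-7 1 of 5 heat shock genes (29.3). The dnj-7 member was listed in replicate 2 alone, at 10.1. A stronger member (51.4, with 31.5 in replicate 1 and 20.5 in replicate 2) lay 2577 bp upstream of hsp-25, beyond the 2000 bp limit. Of 6 genes of dosage compensation and X signals none was assigned within 2000 bp, and sdc-2 held a member in an exon 3502 bp from its 5′ end (29.0). Among 74 miRNA genes on X 8 lay within 2000 bp of a member (10.8%), led by mir-266 (48.3), mir-62 (35.6) and mir-34 (31.8). The mir-62 member is the one in the ugt-50 promoter.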

How the data were processed

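ELT-3 ChIP-seq of whole L1 larvae gave 2 replicates of 1 group. The deposited files were narrowPeak region lists. Their signal value was treated as a score, and per the deposited notes the authors made every list from alignments set against a control: a list per replicate, a pooled list over both and, from these, the optimal set. Caller, aligner, scale and depth are not given in those sources, and the control was not analysed here. Pooled and replicate regions were used in ce11, 1-based, with the WBcel235 genome and Ensembl release 115 (19973 protein-coding genes). The pooled summit was the reference position for all windows.

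WGATAR was searched on both strands within 50 bp of the summit, in flanks at 500 bp, and every word of 6 bases was tested by Fisher's exact test, 2-sided, with Benjamini-Hochberg adjustment over 2080 words. Flanks and members were treated as independent. Interactions came from a logistic model. Lists matched at summits within 100 bp, and members were assigned to the nearest protein-coding 5′ end within 2000 bp. Intervals of shares are 95% exact (Clopper-Pearson), and those of odds ratios and of their ratios are 95% normal intervals on the log scale. All cover counting error only. P-values over regions describe these 2 libraries. The word test was tested on simulated data.

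Members and gene lists were chosen with earlier results of these data known, and the lists were written by gene name for this work. Named are the 15 strongest members, genes with 3 or more members, up to 4 members per list by signal, the 6 members with most sites with ties, and the 5 words of smallest p in each direction. Alternatives were other ranks, distances, flanks, match limits, GATAAG for the site, and each replicate's own list. Python 3.11.15 with scipy 1.17.1, numpy 2.4.6, pandas 2.3.3 and matplotlib 3.10.9 was used.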

Additional observations from a re-analysis of the deposited data

How the results depend on the processing

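Of 97 planned comparisons over 14 results, 69 were counted as unchanged, and so were 5 chosen after seeing the data. For odds ratios and their ratios, unchanged meant the same direction and call. For counts of words and genes, which have no direction or call, it meant equal or within a fixed fold limit. For matched shares it meant a value inside the main interval. Taking each replicate's own strongest regions in turn gave 1.26 to 1.83 for WGATAR at summits against flanks, with the call lost on replicate 1, 0.956 to 1.17 for X against autosomes, 0.832 to 1.08 for that contrast by strength, 0.861 to 1.09 for promoters on X against autosomes, 1.11 to 1.39 for that contrast by strength, 0.765 to 1.18 for WGATAR in promoters against outside, 2.05 to 2.95 for tRNA genes, past the unadjusted threshold on replicate 1, 78 to 93 words more frequent at summits and 210 to 215 genes assigned. With the 1000 strongest regions the values were 0.985 for WGATAR on X against autosomes, 1.07 for promoters by strength, 0.717 for WGATAR in promoters, 3.15 for tRNA genes (also past it), 80 words and 117 genes. WGATAR on X against autosomes was 0.975 within 100 bp, and by strength 1.12 within 25 bp and 1.25 for GATAAG. Promoters reaching 500 bp upstream gave 1.23 by strength and 0.960 for WGATAR in promoters, and those reaching 2000 bp gave 1.24 by strength. The X contrasts that changed direction had passed no threshold, and the cause of the changes was not tested. The share matched in replicate 1 was 97.3% for the 1000 strongest, 89.9% for the 3000 strongest, 82.4% within 50 bp and 96.7% within 200 bp, and in replicate 2 it was 90.9%, 78.3%, 74.8% and 86.6%. No paired analysis of samples was possible because there is 1 group. Read depth is not given, so region counts set the precision, and the few genes per list limit what a count can show.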
